A study of Mus musculus with 2 samples.

Results

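The splicing factor genes described here are the 82 protein-coding genes of the mouse RefSeq table, of 21900 in all, whose symbols begin with Sf3a or Sf3b, Snrp, Prpf, Srsf, U2af, Lsm or Hnrnp. They were chosen by symbol and not by any measured value, but with earlier results of these data known. ELF1, an ETS family transcription factor, had been mapped by ChIP-seq in CH12.LX, an established mouse B-cell lymphoma line of strain B10.H-2aH-4bp/Wts, in 2 biological replicates that form 1 group. Both replicates come from the same cell line and carry no stated treatment, and there is no second condition, so genes are compared with genes and lists with lists. The deposited data are lists of peaks, places where the DNA fragments brought down by the antibody pile up. On the mm10 build there were 29086 optimal peaks and 27399 conservative peaks, each derived from both replicates, and a relaxed list of 300000 entries for each replicate and for the pool. A further list, made on mm9, had 18804 peaks. None of the lists gives read counts, so depth is unknown.

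Splicing is carried out by the spliceosome, which is built from small nuclear ribonucleoproteins (snRNPs), each a small nuclear RNA with a ring of Sm or LSm proteins and its own further subunits. SR proteins, named for repeats of arginine and serine, and hnRNPs bind the pre-mRNA itself and shift the choice of splice sites, often in opposite directions. Every cell that makes mRNA uses the core particles, while SR proteins and hnRNPs are known for tuning their own levels through splicing of their own transcripts. The members were put into 3 groups: 50 core snRNP genes (12 Snrp, 12 SF3 and U2AF, 13 Prpf and 13 Lsm genes), 11 SR genes and 21 hnRNP genes. The symbol rule also takes in genes whose known work lies elsewhere, such as Lsm1 and Lsm14a in mRNA decay and storage and Lsm10 and Lsm11 in histone mRNA processing, and Hnrnpa1l2-ps2, which the table lists as protein-coding. It leaves out spliceosome genes with other symbols, such as Snrnp70.

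The DNA under the strongest mm9 promoter peaks of each group is shown so that the letters at the summits can be read beside the counts of ETS words. ETS factors recognise a GGAA core, and CCGGAAGT is a favoured form of it. Each line gives the mm9 coordinates and the gene's strand of 101 bases centred on the summit, read 5′ to 3′ in the direction of the gene, with capitals on CCGGAAGT where that word is present and otherwise on CCGGAA, on either strand. The sequence of Sf3b6 was added after its matches had been seen.

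Sf3b5, chr10:12728186-12728286 (+): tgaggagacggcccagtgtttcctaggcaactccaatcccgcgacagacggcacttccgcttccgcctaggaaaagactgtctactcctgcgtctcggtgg

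Prpf19, chr19:10969639-10969739 (+): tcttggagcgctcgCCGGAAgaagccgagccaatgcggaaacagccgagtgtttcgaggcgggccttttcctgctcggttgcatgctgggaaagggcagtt

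Srsf11, chr3:157694716-157694816 (-): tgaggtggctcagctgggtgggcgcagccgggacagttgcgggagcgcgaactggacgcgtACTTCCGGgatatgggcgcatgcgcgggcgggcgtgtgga

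Srsf2, chr11:116714435-116714535 (-): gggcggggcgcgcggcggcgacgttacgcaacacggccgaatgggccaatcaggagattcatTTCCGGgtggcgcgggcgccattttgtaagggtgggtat

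Hnrnpm, chr17:33822392-33822492 (-): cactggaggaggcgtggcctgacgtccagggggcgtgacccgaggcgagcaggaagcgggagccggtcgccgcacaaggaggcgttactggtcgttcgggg

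Hnrnpr, chr4:135866789-135866889 (+): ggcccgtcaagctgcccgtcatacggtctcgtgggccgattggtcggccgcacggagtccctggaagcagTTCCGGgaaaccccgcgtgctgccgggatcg

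Sf3b6, chr12:4824297-4824397 (+): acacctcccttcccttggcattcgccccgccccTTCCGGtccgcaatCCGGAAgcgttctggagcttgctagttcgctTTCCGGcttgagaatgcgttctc

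The window of Srsf11 holds the full word, those of Prpf19, Srsf2 and Hnrnpr hold CCGGAA once, that of Sf3b6 holds it 3 times, and those of Sf3b5 and Hnrnpm hold the GGAA core only. The Srsf11 summit shown, of mm9 signal 660, lay 76 bp before the nearest start but 4837 bp inside the gene from the most 5′ start. A different mm9 peak of Srsf11, of 337, lay 30 bp from a start. In mm10 the Srsf11 gene held no optimal peak over 2 kb from its 5′ end. The 3 words are nested, so every match to a longer word also counts for the shorter ones. Over the 70 members with an mm9 promoter peak, 14 had CCGGAAGT within 50 bp of the summit, against 954 of 7271 promoter peaks of protein-coding genes (13.1%). CCGGAA was found at 34 of the 70 (48.6%), against 40.3% of promoter peaks, and GGAA at 64 (91.4%), against 91.2%. In windows of the same length at the most 5′ start of all 22367 protein-coding genes, the shares were 3.12%, 9.77% and 67.1%. By group, CCGGAA lay under 25 of 46 core snRNP peaks, 4 of 9 SR peaks and 5 of 15 hnRNP peaks. The 14 genes with the full word were Srsf4, Srsf5 and Srsf11 of the SR group, Hnrnpd and Hnrnpu of the hnRNP group, and Lsm1, Lsm5, Prpf4b, Prpf6, Sf3a1, Sf3a3, Sf3b4, Snrpb and Snrpe of the core group. A match of letters is a description and does not show that the site is used.

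ELF1 lay at the promoter of most splicing factor genes. In the mm10 optimal list 66 of the 82 members (80.5%, 95% exact interval 70.3% to 88.4%) had a summit within 1 kb of the RefSeq 5′ end, against 39.5% of 21317 protein-coding genes. Core snRNP genes had such a peak in 48 of 50 cases (96.0%, 86.3% to 99.5%), hnRNP genes in 14 of 21 (66.7%, 43.0% to 85.4%) and SR genes in 4 of 11 (36.4%, 10.9% to 69.2%), a share near that of all genes. The mm9 list with every GENCODE M1 start gave another picture for the SR genes, 9 of 11 (81.8%, 48.2% to 97.7%), and put the core group at 46 of 50 and the hnRNP group at 15 of 20. In that list 70 of 81 matched members (86.4%) had a promoter peak, against 36.8% of 22367 protein-coding genes. The intervals cover counting error only, and genes of 1 family or with a shared promoter are not independent.

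**Figure D1:**
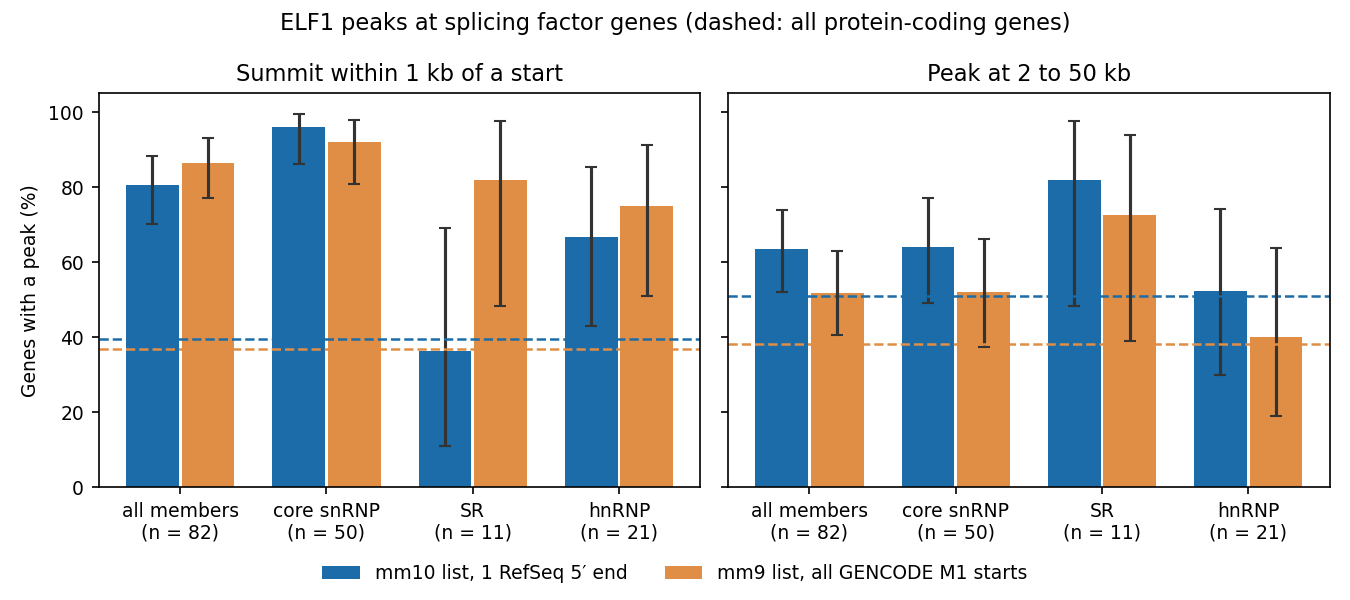
Share of genes (%) with an ELF1 summit within 1 kb of a start (left) or with a peak 2 to 50 kb away (right), for all members and the 3 groups; blue bars use the mm10 optimal list, orange bars the mm9 list (81 members and 20 hnRNP genes matched there), whiskers are 95% exact intervals, and dashed lines are all protein-coding genes. The SR bar at the promoter is 36.4% in mm10 and 81.8% in mm9, while the core snRNP bars are 96.0% and 92.0%.

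Among the Snrp genes, which encode the Sm proteins and the subunits particular to the U1 and U2 particles, 11 of 12 had a promoter peak. Peak signal is the authors' value for each peak on a scale that is not given, so it serves to rank peaks within a list. Snrpc, a U1 subunit gene, had a signal of 389 in the optimal list, with 188 in replicate 1 and 203 in replicate 2. Snrpb2, which encodes the U2 B″ protein, had 312 in the optimal list, 132 in replicate 1 and 180 in replicate 2. Snrpe, an Sm protein gene, had 299, 133 and 164 in the same order. These are strong sites in both replicates. The peaks of Snrpd1 (258), Snrpg (203), Snrpb (196), Snrpd2 (128) and Snrpd3 (121), which encode other Sm proteins, and of Snrpa (141) and Snrpa1 (83.6), of U1 and U2, lay between these and the weakest. Snrpf, the remaining gene of the common Sm ring, stood apart with 18.6 in the optimal list, 11.3 in replicate 1 and 7.58 in replicate 2, ranked 26366 of the 29086 optimal peaks, and had no mm9 promoter peak. Snrpn, which encodes a tissue-restricted Sm protein from an imprinted locus, was the Snrp gene without a promoter peak, and its nearest optimal peak lay 1221432 bp away.

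All 12 SF3 and U2AF genes had a promoter peak. The SF3a and SF3b proteins belong to the U2 particle and hold it at the branch point, and U2AF marks the 3′ splice site. Sf3b5 had the strongest promoter peak of any member, with 557 in the optimal list (rank 17 of all peaks), 269 in replicate 1 and 290 in replicate 2. It lay on mm10 chromosome 10 from 13008270 to 13008582, with the summit 25 bp before the 5′ end. Sf3b2 had 354, 174 and 176, and Sf3b3 had 335, 157 and 178, in the same order. Sf3b6 (328), Sf3b1 (305) and Sf3a2 (247) were also in the upper part of the group, and Sf3a3 (153), Sf3a1 (148) and Sf3b4 (118) in the middle. The U2AF genes had the lowest signals of the subfamily: U2af2 had 84.2, U2af1l4 70.7 and U2af1 49.5, the last with 18.8 in replicate 1 and 29.7 in replicate 2. The U2af2 peak of the mm9 list, at 405, ranked 1559 there, against rank 6736 for the mm10 peak used here, which lay 772 bp inside the gene.

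Of the 13 Prpf genes, 12 had a promoter peak. Prpf19, which encodes a ubiquitin ligase of the activated spliceosome, had 429 in the optimal list, 201 in replicate 1 and 231 in replicate 2. Prpf4b, a kinase gene, had 349, 160 and 189, and Prpf38b had 336, 158 and 175. The Prpf4b summit lay 336 bp before the 5′ end. The strongest peak at the start that the RefSeq promoter table gives for Prpf4b had 74.4. In mm9 the strongest Prpf4b peak (615) lay just inside the 1 kb limit, and the peak 28 bp from the start had 87.7 (rank 7776). The genes of the U4/U6.U5 particle followed, with Prpf8 at 295, Prpf6 at 278, Prpf3 at 203, Prpf31 at 174 and Prpf4 at 110. Prpf38a (218) and Prpf18 (110), which acts in the second step of splicing, lay in the same range. Prpf40b had the weakest peak, with 38.4, 13.2 and 25.1. Prpf39 had no promoter peak in either build, although the pooled relaxed list held an entry of rank 59303 there.

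All 13 Lsm genes had a promoter peak in both builds. Lsm5 had 296 in the optimal list, 129 in replicate 1 and 167 in replicate 2, and Lsm8, which directs the LSm ring to U6 RNA, had 252, 111 and 139. Lsm10, of the U7 particle, had 197, 95.8 and 102. Lsm2 (174), Lsm4 (150), Lsm3 (134), Lsm6 (123) and Lsm7 (77.2), the rest of the U6 ring, lay below these, as did Lsm1 (121), which takes the place of Lsm8 in the cytoplasmic ring. The 3 lowest were Lsm11 at 65.8, the partner of Lsm10 in the U7 particle, Lsm14a at 46.5 and Lsm12 at 44.5, and Lsm14b had 80.8. The Lsm12 summit lay 923 bp inside the gene, the farthest of all members.

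The 4 SR genes with an mm10 promoter peak had strong ones, all within 100 bp of the 5′ end. Srsf5 had 265 in the optimal list, 133 in replicate 1 and 134 in replicate 2. Srsf11 had 229, 93.8 and 140, Srsf4 had 175, 67.3 and 109, and Srsf9 had 143, 67.5 and 74.1. No mm10 optimal peak was found within 1 kb of the 5′ end of Srsf1, Srsf2, Srsf3, Srsf6, Srsf7, Srsf10 and Srsf12.

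Among the hnRNP genes Hnrnpm had the strongest peak, with 333 in the optimal list, 157 in replicate 1 and 185 in replicate 2. Hnrnpr had 229, 103 and 125, and Hnrnpul2 had 215, 85.7 and 131. Hnrnpc (177), Hnrnph2 (155), Hnrnpf (152), Hnrnpab (140), Hnrnpd (123), Hnrnpa0 (96.1), Hnrnpll (89.8) and Hnrnpul1 (81.8) followed. Hnrnpa1 (51.9) and Hnrnpa3 (49.5), which encode related proteins of the A/B type, were lower, and Hnrnpl was the lowest at the 5′ end used, with 29.6, 9.97 and 22.1. At the start that the RefSeq promoter table gives for Hnrnpl the strongest peak had 54.7, above those of Hnrnpa1 and Hnrnpa3. Hnrnpa2b1, Hnrnpdl, Hnrnph1, Hnrnph3, Hnrnpk, Hnrnpu and Hnrnpa1l2-ps2 had none within 1 kb.

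**Figure D2:**
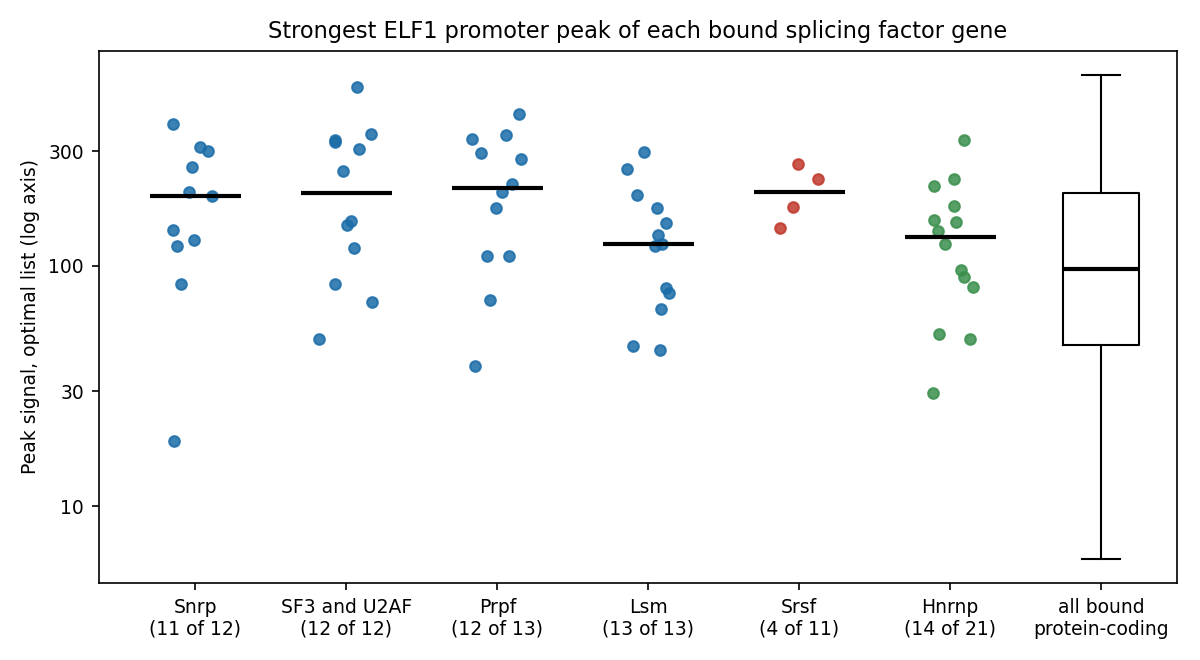
Peak signal in the optimal list (log axis) of the strongest promoter peak of each of the 66 members that have one, by subfamily (core snRNP blue, SR red, hnRNP green; black lines are medians), with all 8412 protein-coding genes that have a promoter peak as a box (quartiles, whiskers to the extremes). Sf3b5 is the highest point at 557 and Snrpf the lowest at 18.6.

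Members with a promoter peak had higher signals than genes at large. Their median was 153, against 97.1 for all 8412 protein-coding genes with a promoter peak, and 31 of the 66 (47.0%) were among the 2908 strongest optimal peaks, against 29.8% of all such genes. The median was 164 for the 48 core snRNP genes, 202 for the 4 SR genes and 132 for the 14 hnRNP genes, with ranges that overlapped (18.6 to 557, 143 to 265 and 29.6 to 333). The summit lay within 100 bp of the 5′ end at 43 of the 66 members (65.2%), against 54.2% of all such genes. The strongest summit lay over 500 bp away at Lsm12, Hnrnpab, U2af2 and Hnrnpl, in each case inside the gene. Hnrnpab and U2af2 also had weaker optimal peaks nearer the 5′ end, of 119 at 73 bp and 33.2 at 187 bp. In mm9 the Lsm12 summit lay 49 bp before a start.

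The replicates gave much the same order. The optimal list was itself selected for reproducibility between them, so presence in both is largely set by that selection. Of the 66 promoter peaks of members, 65 (98.5%) had an entry within 100 bp in both relaxed lists, against 93.5% of all genes with a promoter peak. The 65 pairs of log2 signals correlated at 0.909 (Pearson) and 0.941 (Spearman), a description across genes of the same 2 libraries. Replicate 2 had the higher value at 57 of the 65 and a median ratio to replicate 1 of 1.23, on scales that may differ. Hnrnpa3 (31.2 in replicate 1 and 15.9 in replicate 2), Hnrnpa1 (30.5 and 21.2) and U2af1l4 (51.3 and 21.8) were among those that went the other way.

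**Figure D3:**
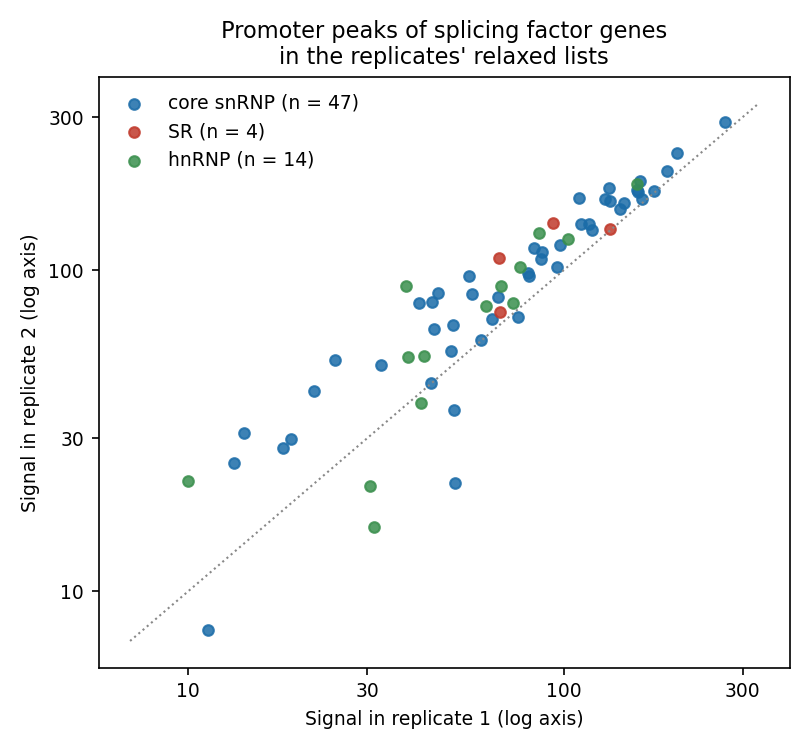
Signal of each member's promoter peak in replicate 1 (x axis) and replicate 2 (y axis), both log axes, from each replicate's relaxed list, for the 47 core snRNP, 4 SR and 14 hnRNP genes with an entry in both; the dotted line marks equal values. Sf3b5 is at the upper right (269 and 290) and Snrpf at the lower left (11.3 and 7.58).

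The members without an mm10 promoter peak fell into several kinds, and 7 of the 16 had an mm9 peak but no mm10 entry of any list within 1 kb, which is 7 of the 70 members with an mm9 promoter peak, against 271 of all 7135 matched genes. Srsf2 had an mm9 promoter peak of signal 495, rank 1178 of 18804, with the summit 77 bp before the start, and this summit is also the promoter peak of its neighbour Mfsd11. In mm10 no entry of the pooled list or of either replicate lay within 11818 bp of its 5′ end. This left 24.1 kb without any entry. The relaxed lists include background, but the lengths of such stretches were not compared with those at all genes. Members with an mm10 promoter peak could adjoin long ones too, such as Srsf5 (14.1 kb), Prpf38a (12.9 kb) and Sf3a3 (11.7 kb). Srsf7 had an mm9 peak of 363 (rank 1776) and an mm10 stretch of 20.9 kb with no entry. Srsf1 had 166 and 21.6 kb, Hnrnpu 106 and 30017 bp, Hnrnph3 65.3 and 30.1 kb, and Hnrnph1 64.2 and 27.7 kb. For Srsf1 and Hnrnpu these were not the mm9 peaks nearest a start. The nearest had 39.5 (rank 17134) 1 bp from a start of Srsf1, and 42.7 at 91 bp for Hnrnpu. No GGAA lay within 50 bp of the Srsf1 summit of 166. The Hnrnph3 peak is also that of its neighbour Pbld2. Hnrnph1 had no mm9 peak within 1 kb of its most 5′ start. Srsf3, with an mm9 peak of 186, had an empty stretch of 19.2 kb whose nearer edge lay 2514 bp before the 5′ end.

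Among genes with an mm9 promoter peak, such stretches were counted by group. Within 1 kb they were found at 4 of 9 SR, 3 of 15 hnRNP and 0 of 46 core snRNP genes. The contrast with all genes depends on the distance used and was not tested. Of the genes with an mm9 promoter peak, those with neither an mm10 promoter peak nor a relaxed entry within 5 kb of the 5′ end were 3 of 9 SR genes, 3 of 15 hnRNP genes and 0 of 46 core snRNP genes, against 37 of all 7135 matched genes (0.519%). So 6 of these 37 genes were members. Without regard to relaxed entries, 5 of 9 SR genes, 4 of 15 hnRNP genes and 0 of 46 core genes had an mm9 promoter peak and no mm10 one, against 930 of 7135 (13.0%). Why the mm10 lists have no entry there was not tested.

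**Figure D4:**
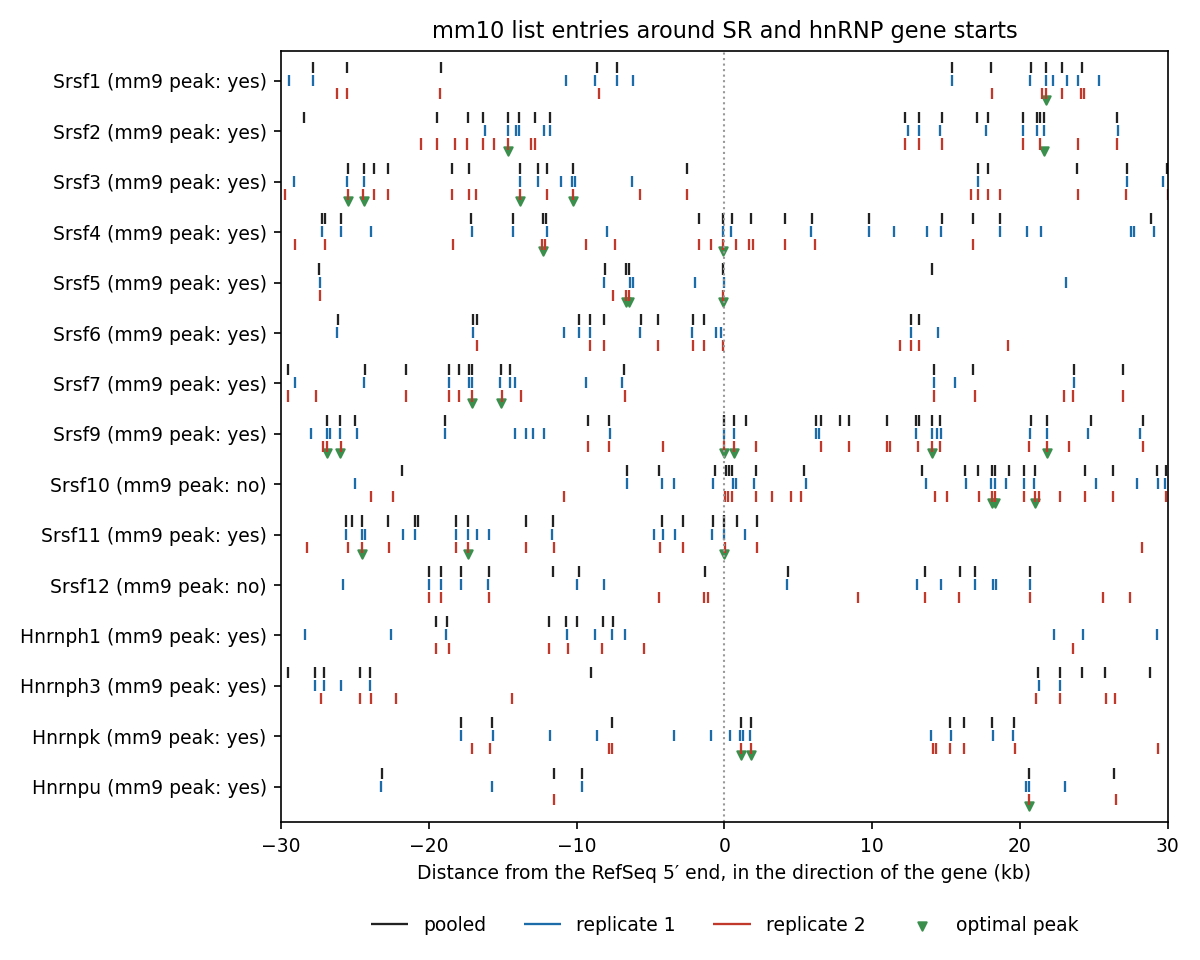
Entries of the 3 mm10 relaxed lists (ticks: pooled black, replicate 1 blue, replicate 2 red) and optimal peaks (green triangles) by distance in kb from the RefSeq 5′ end, in the direction of the gene, for the 11 SR genes and the 4 hnRNP genes with an mm9 promoter peak and no mm10 one. The rows of Srsf1, Srsf2, Srsf7, Hnrnph1, Hnrnph3 and Hnrnpu have no tick within 5 kb of the start, while those of Srsf4, Srsf5, Srsf9 and Srsf11 have an optimal peak there.

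The other members without an mm10 promoter peak were of different kinds. Srsf6 had an mm9 peak of 47.2 and mm10 entries 264 bp before the 5′ end in replicate 1 and 76 bp before it in replicate 2, but none after it for 11893 bp. Hnrnpk had an mm9 peak of 38.4, and its nearest mm10 optimal peak lay 1150 bp inside the gene, just past the 1 kb limit. An optimal peak of 36.5 did lie within 1 kb of the start that the RefSeq promoter table gives for Hnrnpk. Srsf10, whose product represses splicing when dephosphorylated, had no mm9 peak either, and the best mm10 pooled entry within 1 kb ranked 53066. In replicate 2 alone the best entry within 1 kb ranked 22576 for Srsf10 and 13429 for Srsf6. Srsf12, Prpf39, Snrpn, Hnrnpa2b1 and Hnrnpdl also had no promoter peak in either build. Of these, Snrpn stood in the longest mm10 stretch without an entry of any member, 288 kb, Hnrnpa2b1 in 38.1 kb, Hnrnpdl in 31.4 kb and Srsf12 in 5.34 kb. Hnrnpa1l2-ps2 had no match in GENCODE M1, and its nearest optimal peak lay 2554851 bp away.

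Sf3a2 (mm10 signal 247), Hnrnpul2 (215), Hnrnpc (177), Hnrnpa1 (51.9) and Snrpf (18.6) had an mm10 promoter peak but none in mm9, where the nearest peak lay 12401 to 37395 bp from a start. In either build together, 75 of 81 members (92.6%) had a promoter peak, with 48 of 50 core snRNP, 9 of 11 SR and 18 of 20 hnRNP genes, against 45.8% of 18093 protein-coding genes matched in both annotations.

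Promoters of members were rich in CpG. On mm9, the ratio of observed to expected CpG within 500 bp of the most 5′ start had a median of 0.842 for members, against 0.549 for all protein-coding genes. Of the members 75 of 81 had a ratio of at least 0.6, and 66 of these 75 (88.0%) had an mm9 promoter peak. Of all protein-coding genes with such a ratio, 61.9% did. By group the shares at CpG-rich promoters were 45 of 48 for core snRNP genes, 9 of 10 for SR genes and 12 of 17 for hnRNP genes. The part of CpG content in the members' share was not tested.

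Members often shared a promoter with a gene on the other strand. A protein-coding gene started head to head within 1 kb at 18 of 82 members (22.0%), against 6.95% of all protein-coding genes. Such pairs included Srsf11 with Lrrc40, Srsf7 with Gemin6, itself a gene of snRNP assembly, Lsm3 with the DNA repair gene Xpc, Hnrnpa2b1 with Cbx3, and Hnrnpa1 with Cbx5, the last 2 partners encoding heterochromatin proteins of the HP1 family. The promoter was occupied at 15 of the 18, close to the share of all genes with a partner (1261 of 1482). Among the 64 members with no such partner 51 had a promoter peak (79.7%), against 36.1% of all genes without a partner. For 20 of the 66 members with a promoter peak the summit lay within 1 kb of another protein-coding 5′ end too, so that peak cannot be assigned to the member alone.

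Distal peaks, counted at 2 to 50 kb and only where no protein-coding 5′ end lay within 2 kb, put the groups in another order. Of all members 52 of 82 (63.4%, 52.0% to 73.8%) had at least 1, against 50.9% of protein-coding genes. SR genes had one in 9 of 11 cases (81.8%, 48.2% to 97.7%), core snRNP genes in 32 of 50 (64.0%, 49.2% to 77.1%) and hnRNP genes in 11 of 21 (52.4%, 29.8% to 74.3%), all intervals that overlap widely. In the mm9 list the counts were 8 of 11, 26 of 50 and 8 of 20, and 42 of 81 (51.9%) for all members, against 38.1% of protein-coding genes. Within 20 kb the share was 25 of 82 members (30.5%), close to the 29.8% of protein-coding genes.

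The strongest distal peak of any member lay 36.9 kb before the 5′ end of Sf3a1, outside gene bounds on mm10 chromosome 11 from 4123303 to 4123550, with a signal of 403 in the optimal list, 184 in replicate 1 and 219 in replicate 2. Hnrnpab had one of 368 at -8.90 kb, the minus sign meaning before the 5′ end, with 176 and 190 in the replicates. The Hnrnpf peak of 296 lay 21.1 kb before its 5′ end but within 1 kb of a RefSeq start of the gene Gm38882. The Snrpa peak of 248, with 110 and 140 in the replicates, lay within the bounds of Coq8b, 36.8 kb before the 5′ end. Distal peaks of SR genes were weaker, at most 86.3 near Srsf2 (34.4 in replicate 1 and 49.3 in replicate 2) and 81.9 near Srsf7 (31.7 and 51.4). These distances do not tie a peak to the member, since other genes lie between or nearer.

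Members with a promoter peak had a distal one about as often as other genes. Both were present at 32 of 48 core snRNP genes, 3 of 4 SR genes and 9 of 14 hnRNP genes, 66.7% of the 66 members together, against 65.4% of all protein-coding genes with a promoter peak. Of the 16 members without an mm10 promoter peak 8 had a distal one, against 41.3% of all such genes. Among them Prpf39 and Snrpn of the core group had none. Of the 7 SR genes without an mm10 promoter peak 6 had a distal peak, the exception being Srsf6, and of the 7 such hnRNP genes 2 did, Hnrnph3 and Hnrnpu, counts too small to set the groups apart. Sf3a1 and Hnrnpl had the most distal peaks, 9 each, and Lsm4 had 7. In all, the members had 151 different distal peaks, of which 22 (14.6%) lay within 1 kb of a start of some gene in the RefSeq promoter table, noncoding genes included. The median of the strongest distal signals was 53.4 for the 52 members and 52.5 for all genes with a distal peak.

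Splicing genes outside the symbol rule were given the same counts at the mm10 promoter. Of 57 other spliceosome genes 53 (93.0%) had a promoter peak, led by Xab2 (signal 477, with 211 in replicate 1 and 266 in replicate 2) and Cwc25 (460, with 226 and 236). Those without one were Isy1, Puf60, Snrnp35 and Srrm2. Of 16 genes of snRNP assembly 13 had one, led by Prmt5 (418, with 184 and 236), which methylates Sm proteins, and Gemin4 (285, with 130 and 154), while Gemin6, Smn1 and Snupn had none. Of 6 kinase genes of SR proteins 4 had one, with a low median signal of 41.6 and the highest at Srpk1 (53.5, with 26.6 and 27.0) and Clk4 (46.6, with 16.4 and 32.4), and none at Clk3 and Srpk2. Of 24 other splicing regulators 20 had one, led by Tia1 (340, with 140 and 198) and Ptbp1 (228, with 118 and 111), and Mbnl1, Ptbp2, Rbfox2 and Syncrip had none. Each share lay above the 39.5% of all protein-coding genes, though a list of 6 genes bears little weight. Several genes without an mm10 promoter peak had one in mm9. These were Clk3 (640), Snupn (540), Smn1 (198), Puf60 (177), Srrm2 (134), Srpk2 (65.8), Snrnp35 (58.3), Gemin6 (55.7) and Syncrip (36.4). Isy1, Mbnl1, Ptbp2 and Rbfox2 had none in either build.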

How the data were processed

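ELF1 ChIP-seq peak lists of 2 replicates were used in narrowPeak form. Per the deposited README text, relaxed lists came from mm10 alignments with a control, the optimal and conservative lists from the relaxed lists by the irreproducible discovery rate, and the mm9 list from both replicates' mm9 alignments. The sources used here name no aligner or peak caller. The deposited signal (column 7) has no stated scale and was used within lists.

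RefSeq GRCm38.p6 gave 1 5′ end per gene, with strand from the RefSeq promoter table (17274 genes) or GENCODE M1 (4043, 12 of them members). The mm9 list was read with all GENCODE M1 starts and the NCBIM37 sequence, and 4 of 81 members matched by synonym. Coordinates were never converted between builds. Window, list, replicate and distance alternatives were computed. With 1 group and no contrast no test was made, and gene groups have counts beside all genes. The calls were tested on simulated data, with 240 of 240 promoter and distal calls on planted summits right. Members and lists were chosen with earlier results of these data known. Named genes are, per subfamily, the 3 strongest and the weakest promoter peak and every unbound member, the 2 strongest distal peaks per group, and in other splicing lists the 2 strongest and up to 5 unbound genes; most others are named for completeness, and the values of 1 member are not reported here. Python 3.11.15, pandas 2.3.3 and scipy 1.17.1 were used.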

Additional observations from a re-analysis of the deposited data

How the results depend on the processing

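Of 83 alternative values 75 lay within 1.5 times the main count. At the promoter, windows of 500 bp and 2 kb gave 64 and 67 members, against 66, conservative peaks 65 and the stronger 50% of optimal peaks 63. The shares of all protein-coding genes at these settings were 36.3%, 42.4%, 38.9% and 31.8%, in the same order. With 1 replicate alone the counts ran from 66 to 67 members, 47 to 48 core snRNP, 4 to 6 SR and 14 hnRNP genes. The share of all protein-coding genes was then 39.9% to 40.2%. The SR count of 4 became 9 with the mm9 list and 9 with either build, an alternative added after the data were seen. In the mm9 list the most 5′ start alone gave 67 of 81 members, against 70 with every start. Each SR gene with an mm9 promoter peak had one within 1 kb of its most 5′ start. The cause of the difference between builds was not tested. Restricting the core group to Snrp, Sf3 and U2af genes left 23 of 24 at the promoter and 16 of 24 at distance, fewer because fewer genes are counted. For distal peaks, 20 kb gave 25 members, 13 core snRNP and 6 hnRNP genes, counts that are fewer by construction. The core snRNP and hnRNP shares at 20 kb were below that of all protein-coding genes, while the SR share was above it. So the core snRNP group lay above all genes at the main distance but not at 20 kb. The stronger 50% of peaks left 5 SR genes with a distal peak. Single replicates gave 50 members, 29 to 31 core snRNP, 9 to 10 SR and 10 to 11 hnRNP genes with a distal peak, against 51.7% to 52.4% of all protein-coding genes. No paired analysis was possible because there is 1 group. Without read counts, a missing peak cannot be told from low coverage.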

Other observations

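The 37 genes with an mm9 promoter peak and no mm10 relaxed entry within 5 kb were the 6 splicing factor genes and others of many functions, and no shared function was tested. Pabpc1, the cytoplasmic poly(A)-binding protein gene, had the strongest mm9 peak of them (signal 765, rank 534) in an mm10 stretch of 28.1 kb without an entry. Pnn, which encodes the splicing-associated protein pinin, had 387 and 21.6 kb, Phax, an adaptor for export of small nuclear RNA, had 241 and 12.2 kb, Eif4g2 had 118 and 30.9 kb, Pabpn1, the nuclear poly(A)-binding protein gene, had 89.9 and 25.6 kb, and Rbm39, a splicing regulator gene, had 43.7 and 18.7 kb. Others were Tsg101 of endosomal sorting (442 and 13.7 kb), Scp2 (348 and 41.0 kb) and Irak1 (117 and 49.2 kb). These genes were picked out after their values had been seen.

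Clk3, an SR protein kinase gene, had an mm9 promoter peak of 640 and Snupn, the import adaptor of snRNPs, one of 540, and both had mm10 relaxed entries, 26 and 348 bp from the 5′ end, without an mm10 optimal peak within 1 kb.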
